A study of Homo sapiens with 22 samples.

Results

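The 9 genes described here, PPARA, CPT1A, CPT2, ACADM, ACADVL, HADHA, HADHB, EHHADH and MLYCD, serve fatty acid oxidation, and they were followed in 3 human liver cancer cell lines. They were found by symbol in the array's annotation, which gave 9 of its 16922 named genes and 13 of its 24526 probes. Of these 13 probes, 12 passed the filter on low values and 1 of the 3 CPT1A probes did not, so each of the 9 genes was tested, among 13870 named genes and unnamed probes (together called genes below). The set also goes by the name of ketogenesis, but none of the 9 encodes an enzyme that makes ketone bodies.

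The cells were Huh7, HepG2 and Hep3B, established lines from liver cancer, harvested 48 h after transfection with siRNA at 15 nM, which was either directed at COP1 or a negative control (control below). COP1 is an E3 ubiquitin ligase, an enzyme that marks other proteins for degradation. There were 3 COP1 siRNA and 3 control arrays of Huh7, 4 and 4 of HepG2 and 4 and 4 of Hep3B, 22 in all, from cells grown in DMEM/F-12 medium with 10% fetal bovine serum. The design text names a single siRNA against COP1, and the labels do not say whether replicates were separate cultures, so the spread on which p-values rest may be technical.

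Fatty acids are burned mainly in mitochondria, and their entry is a controlled step. CPT1A in the outer membrane joins the fatty acid to carnitine, CPT2 in the inner membrane takes it off again, and malonyl-CoA, which MLYCD breaks down, blocks CPT1A. ACADVL and ACADM start each round of oxidation, for very long and for medium chains, HADHA and HADHB are the subunits of the trifunctional protein that completes the round for long chains, and EHHADH does similar work in peroxisomes. PPARA is a nuclear receptor that binds fatty acids, pairs with a retinoid X receptor and switches on many of these genes in the liver.

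In the RefSeq annotation of GRCh38.p14 the genes lie on 7 chromosomes. CPT2 (1:53196824-53214197) and ACADM (1:75724709-75763679) share chromosome 1, and HADHA (2:26190635-26244632) and HADHB (2:26244939-26290465) are neighbours. The others are EHHADH (3:185190624-185254049), CPT1A (11:68754620-68844277), MLYCD (16:83899115-83927031), ACADVL (17:7217125-7225266) and PPARA (22:46150526-46243756).

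Promoter windows of 250 bases before and 50 after the start were at hand from RefSeq (GRCh38.p14) for all of the 9 but EHHADH. HADHA starts at 26244632 on the minus strand and HADHB at 26244939 on the plus strand, 307 bases apart, so the genes run away from each other. The overlap of their promoter windows, chr2:26244689-26244882 (plus strand), is a part of the sequence between the starts and leaves out a further GC box nearer to the start of HADHB. It is shown because the levels of these 2 genes are set side by side below. Capitals mark GGGCGG, the GC box, on either strand.

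HADHA and HADHB shared promoter: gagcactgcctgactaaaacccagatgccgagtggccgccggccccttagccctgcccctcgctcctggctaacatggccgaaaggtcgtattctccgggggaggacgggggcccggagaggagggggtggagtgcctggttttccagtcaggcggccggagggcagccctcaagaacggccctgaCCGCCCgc

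The upstream bases of CPT1A (chr11:68844278-68844527, minus strand) and CPT2 (chr1:53196574-53196823, plus strand) are shown because the changes of both transferases differed between lines. Capitals again mark GC boxes.

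CPT1A upstream: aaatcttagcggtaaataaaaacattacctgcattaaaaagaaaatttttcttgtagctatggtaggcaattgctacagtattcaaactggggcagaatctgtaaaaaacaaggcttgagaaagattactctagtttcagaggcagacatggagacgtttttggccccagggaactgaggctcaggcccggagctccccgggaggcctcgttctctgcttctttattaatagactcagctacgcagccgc

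CPT2 upstream: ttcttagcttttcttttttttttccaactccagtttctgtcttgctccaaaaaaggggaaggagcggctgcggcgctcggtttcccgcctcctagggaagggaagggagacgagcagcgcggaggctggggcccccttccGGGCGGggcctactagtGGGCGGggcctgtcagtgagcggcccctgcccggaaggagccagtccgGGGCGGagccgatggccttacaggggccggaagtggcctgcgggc

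The CPT1A stretch held 44.4% G and C, the CPT2 stretch 65.2% and the stretch shared by HADHA and HADHB 68.6%, with a median of 58.0% over the upstream part of all 35116 promoter windows. The CPT1A window lies at the outer end of the gene's record, and whether transcripts of its brightest probe start there was not tested. The 8 genes had 10 windows, and a gene counted if any of its windows held the motif, while the shares of all are per window. A GC box lay in windows of 7 of the 8 genes, all but CPT1A, and in 45.0% of all windows. The HADHA box lies in the stretch shared with HADHB, so it counts for both genes. AGGTCA, to which nuclear receptors bind, lay in windows of 0 of the 8 genes and in 13.8% of all windows. Its direct repeat with 1 base of any kind between (DR1), the form that PPARA and its partner bind and which overlaps AGGTCA, lay in 0 of 8 and in 0.0228% of all. CCGGAAG, a core bound by ETS factors, lay in windows of CPT2, MLYCD and PPARA, 3 of 8, and in 10.3% of all. CCAAT lay in windows of 2 of the 8 genes and 34.6% of all, TGACGT in 1 and 7.98%, and TTGCNNAA in 0 and 10.5%, with both strands searched throughout.

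Values below are the deposited intensity of each gene's brightest probe, on a linear scale from which background had been subtracted, and a probe counted as above background over 21.8. Log2 levels and changes follow a further correction with an offset of 50, so they understate the changes of dim genes. Tests are those of limma, with p adjusted over the 13870 genes by Benjamini-Hochberg and a threshold of 0.05, and errors of log2 changes are SE. COP1 stood at 15.5%, 25.8% and 21.8% of its control intensity in Huh7, HepG2 and Hep3B cells given COP1 siRNA. Replicate 3 of the Huh7 COP1 siRNA group stood apart, with a highest correlation of 0.858 with any other array, against at least 0.989 for the others, so Huh7 results of the 9 genes are given with and without it. The arrays labelled Hep3B held little hepatocyte RNA: AFP, SERPINA1 and AHSG were above background on all of them, and ALB, APOA1, APOB, TTR, TF and FGB were not. The summed intensity of these 9 markers was 202 to 289 on Hep3B COP1 siRNA arrays and 174 to 298 on Hep3B control arrays, against at least 57204 on each Huh7 and HepG2 array. This goes against the label, whether these arrays are of that line was not tested, and Hep3B below is the name on the labels. Fibroblast markers summed to at most 235 and endothelial markers to at most 147 on any array. The 5 leukocyte markers measured summed to 859 to 1037 on Hep3B COP1 siRNA arrays and 871 to 1010 on Hep3B control arrays.

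**Figure D1:**
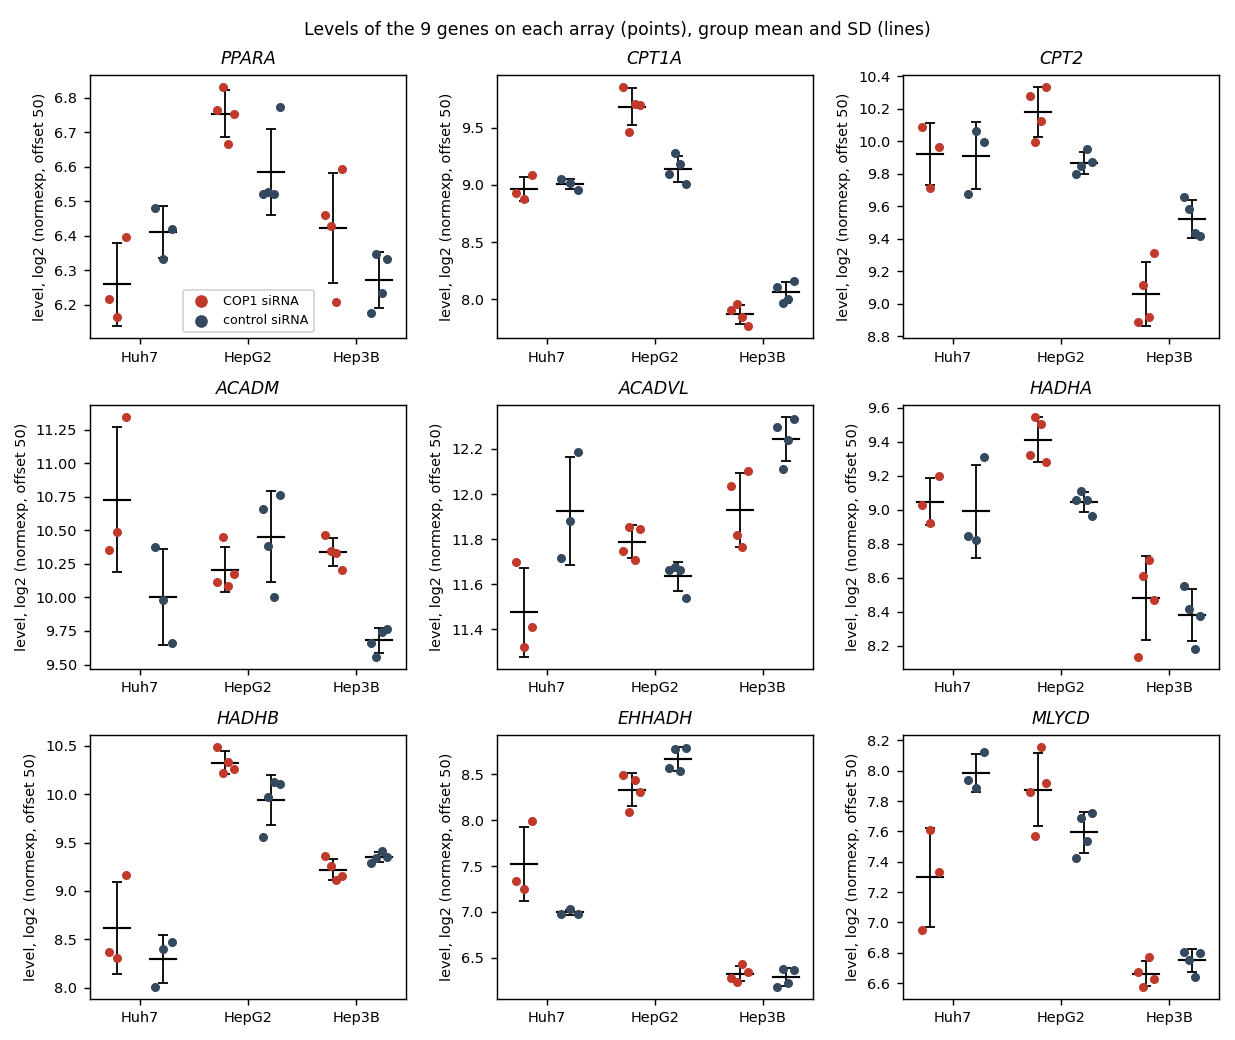
Level of the 9 genes on each of the 22 arrays (vertical axis, log2 after background correction with an offset of 50), COP1 siRNA in red and control in dark blue, with the mean and SD of each group. HepG2 arrays are the highest for HADHB and EHHADH, Hep3B arrays are at background for EHHADH, and 1 Huh7 COP1 siRNA array lies far above the other 2 for ACADM, HADHB and EHHADH.

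In Huh7 cells COP1 siRNA lowered MLYCD and ACADVL and raised ACADM and EHHADH, the rises resting on the array that stood apart. With Huh7 fitted alone no call held (limma adjusted p = 0.064 for MLYCD, 0.17 for ACADVL, 0.16 for ACADM and 0.16 for EHHADH). In all 4 of the 9 passed the test (44.4%), where 32.2% of all genes did (17.0% higher, 15.2% lower), and the median log2 change was 0.01 for the 9 and for all genes. Without that array 2 of the 9 passed, both lower, where 28.9% of all genes passed. The COP1 siRNA and control arrays did not overlap for 3 of the 9, and for 33.5% of all genes.

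MLYCD, which removes malonyl-CoA, had intensities of 48.8, 119.8 and 86.0 on the Huh7 COP1 siRNA arrays, against 171, 162 and 204 on the Huh7 control arrays. All COP1 siRNA arrays lay below all controls, at 47.5% of the control mean. The log2 change was -0.69 ± 0.15 (n = 3 and 3; limma adjusted p = 0.00084), and -0.70 ± 0.16 without the array that stood apart (limma adjusted p = 0.00086). With Huh7 fitted alone the call was lost (limma adjusted p = 0.064, in a range of 0.00018 to 0.064 over the alternatives).

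ACADVL, which starts the oxidation of very long chains, had 3249.5, 2486 and 2644 on the Huh7 COP1 siRNA arrays, against 3287, 3691 and 4586 on the control arrays. The groups did not overlap, though their nearest arrays were close. The log2 change was -0.45 ± 0.13 (n = 3 and 3; limma adjusted p = 0.0098), and -0.42 ± 0.14 without the array that stood apart (limma adjusted p = 0.024; 0.0024 to 0.17 over the alternatives). With all arrays both other ACADVL probes were lower too, by 0.49 ± 0.16 and 0.71 ± 0.21 on the log2 scale (limma adjusted p = 0.023 and 0.012 over all probes). The first had 805, 632 and 344 on COP1 siRNA arrays, against 826, 797 and 851 on control arrays, so its groups overlapped. The second had 284, 280 and 117, against 355, 401 and 449. Both were lowest on the array that stood apart, and neither was tested without it. Without Huh7 control replicate 3, the highest control of the brightest probe, the change of that probe was -0.32 and the call was lost (limma adjusted p = 0.087). It was also lost with Huh7 fitted alone and with array weights (limma adjusted p = 0.17 and 0.13).

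ACADM, which serves medium chains, had 1230.0, 1357 and 2527 on the Huh7 COP1 siRNA arrays, against 1254, 934 and 734 on the control arrays. The groups overlapped, and 2527 was the value of the array that stood apart. The log2 change was 0.72 ± 0.21 (n = 3 and 3; limma adjusted p = 0.0093). It was 0.41 ± 0.18 without that array and 0.55 without Huh7 control replicate 3, and neither passed (limma adjusted p = 0.080 and 0.077; 0.0016 to 0.16 over the alternatives).

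EHHADH, the peroxisomal enzyme, was dim, with 86.8, 77.2 and 179 on the Huh7 COP1 siRNA arrays, against 51.3, 55.6 and 51.0 on the control arrays. All COP1 siRNA arrays lay above all controls, and the array that stood apart was the highest. The log2 change was 0.53 ± 0.15 (n = 3 and 3; limma adjusted p = 0.0079), and 0.30 ± 0.13 without that array, which did not pass (limma adjusted p = 0.085; 0.0021 to 0.17 over the alternatives).

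The carnitine transferases did not pass in Huh7. CPT1A had 413, 395 and 468 on COP1 siRNA arrays, against 454, 444 and 421 on control arrays (log2 change -0.04 ± 0.12; limma adjusted p = 0.81). A dimmer CPT1A probe had 34.0, 38.5 and, on the array that stood apart, 59.8, against 41.6, -3.21 and 24.8 on control arrays. Its log2 change was 0.33 ± 0.16 with all arrays, which did not pass (limma adjusted p = 0.12 over all probes). CPT2 had 1016, 766 and 925 on COP1 siRNA arrays, against 743, 997 and 947 on control arrays (0.01 ± 0.14; limma adjusted p = 0.96). In both transferases the groups overlapped, as they did in the trifunctional protein. HADHA had 447, 409.7 and 512 on COP1 siRNA arrays, against 384, 378 and 559 on control arrays (0.06 ± 0.15; limma adjusted p = 0.81). HADHB had 257, 242 and 500.0 on COP1 siRNA arrays, against 183, 264 and 279 on control arrays. Its highest value was that of the array that stood apart, and its log2 change of 0.32 ± 0.18 (limma adjusted p = 0.17) was 0.05 without it (limma adjusted p = 0.85; 0.054 to 0.88 over the alternatives). PPARA was at background on all 6 Huh7 arrays, between -3.53 and 14.0, so no fold is given.

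**Figure D2:**
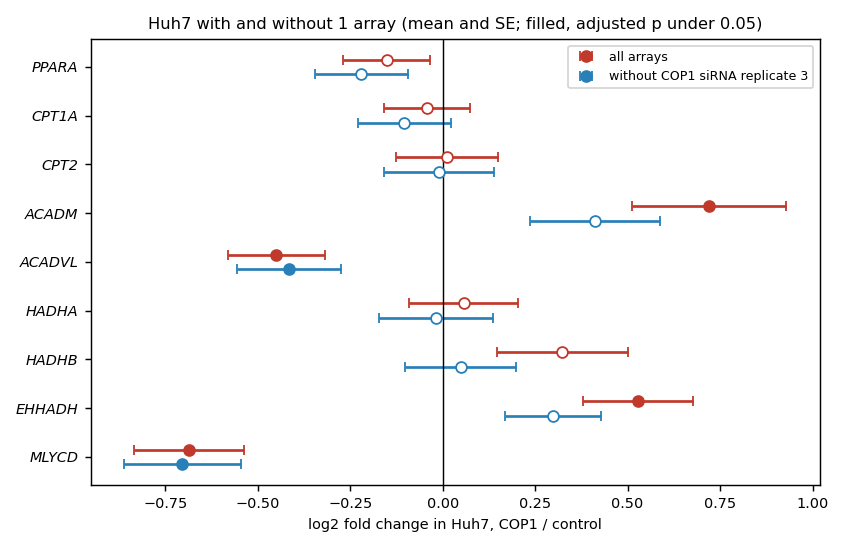
Log2 change of the 9 genes in Huh7 cells (COP1 siRNA over control; mean and SE), with all arrays in red and without COP1 siRNA replicate 3 in blue, filled where the adjusted p is under 0.05. MLYCD (-0.69 and -0.70) and ACADVL (-0.45 and -0.42) are filled both ways, and ACADM and EHHADH with all arrays only.

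Marker RNAs also moved in Huh7. Of the 9 hepatocyte markers 3 fell, with log2 changes of -2.32 ± 0.30 for TTR, a carrier of thyroid hormone, -0.80 ± 0.12 for AHSG, which encodes fetuin-A, and -0.35 ± 0.13 for SERPINA1, a protease inhibitor (limma adjusted p = 1.5e-06, 2.1e-05 and 0.040). Over all genes 15.2% fell in Huh7. Without the array that stood apart 5 of the 9 hepatocyte markers fell, where 28.9% of all genes passed in either direction. The list summed to 57204 to 83977 on COP1 siRNA arrays and 71098 to 75246 on control arrays. The 5 leukocyte markers summed to 440 to 891 on Huh7 COP1 siRNA arrays and 2032 to 2358 on Huh7 control arrays, with log2 changes of -2.08 ± 0.21 for CD14 and -0.90 ± 0.15 for LYZ (limma adjusted p = 3.0e-08 and 6.3e-05). The endothelial marker PECAM1 had a log2 change of 0.37 ± 0.14 (limma adjusted p = 0.045; 0.43 and 0.028 without that array), and its list summed to 113 to 147 on COP1 siRNA arrays and 62.3 to 78.3 on control arrays. PTPRC and CD3E, which define leukocytes and T cells, were not above background on all arrays of any group. The part of these RNAs in the changes of the 9 genes was not tested. In bulk RNA, fewer cells of a type and less RNA per cell cannot be told apart.

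In HepG2 cells COP1 siRNA raised CPT1A, the entry enzyme, and HADHA, and the other 7 genes did not pass the test. The 2 are 22.2% of the 9, where 18.6% of all genes passed (9.06% higher, 9.52% lower), and the median log2 change was 0.28 for the 9 and 0.02 for all genes. For 6 of the 9 no arrays overlapped between groups, with COP1 siRNA above control in 5 and below in 1, and likewise for 25.0% of all genes.

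CPT1A had 853, 631, 760.4 and 755 on the HepG2 COP1 siRNA arrays, against 471, 544, 505 and 441 on the HepG2 control arrays. Each COP1 siRNA array lay above each control, at 153% of the control mean. The log2 change was 0.54 ± 0.10 (n = 4 and 4; limma adjusted p = 0.00029). The dimmer CPT1A probe, annotated to another transcript record, gave 36.9, 36.4, 50.4 and 34.2 on COP1 siRNA arrays, against 39.3, 65.4, 15.9 and 43.2 on control arrays. Its groups overlapped (log2 change -0.0034 ± 0.14; limma adjusted p = 0.99 over all probes), and with the mean of both probes the CPT1A call was lost, at 0.27 (limma adjusted p = 0.067; 1.8e-05 to 0.067 over the alternatives).

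HADHA had 564, 674, 651 and 546 on the HepG2 COP1 siRNA arrays, against 457, 477, 458 and 423 on the control arrays. The groups did not overlap, and the log2 change was 0.37 ± 0.13 (n = 4 and 4; limma adjusted p = 0.046). The call was lost under 12 of 20 alternatives, among them leaving out any 1 of the 4 controls or COP1 siRNA replicate 1, 2 or 3 (limma adjusted p = 0.015 to 0.13 over all 20). HADHB, the partner subunit, had 1359, 1116, 1217 and 1153 on COP1 siRNA arrays, against 679, 925, 1038 and 1022 on control arrays. Its groups did not overlap either, and its log2 change of 0.39 ± 0.15 did not pass (limma adjusted p = 0.080; 0.0075 to 0.29 over the alternatives).

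CPT2 had 1170.4, 945, 1040.1 and 1215 on the HepG2 COP1 siRNA arrays, against 814, 845, 918 and 864 on the control arrays. The groups lay apart, with a log2 change of 0.31 ± 0.12 that did not pass (limma adjusted p = 0.068; 0.018 to 0.18 over the alternatives). EHHADH had 286, 198, 270.5 and 243 on COP1 siRNA arrays, against 303, 364, 297 and 365 on control arrays. Here all COP1 siRNA arrays lay below all controls, with a log2 change of -0.33 ± 0.13 that did not pass (limma adjusted p = 0.074; 0.024 to 0.24 over the alternatives). With HepG2 fitted alone CPT2, HADHB and EHHADH passed as well (limma adjusted p = 0.040, 0.027 and 0.039).

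The acyl-CoA dehydrogenases, MLYCD and PPARA did not pass in HepG2. ACADM had 1036, 1323, 1009 and 1081 on COP1 siRNA arrays, against 1537, 1259, 951 and 1666 on control arrays (log2 change -0.24 ± 0.18; limma adjusted p = 0.40). ACADVL had 3361, 3632, 3271 and 3602 on COP1 siRNA arrays, against 3172, 3197, 3165 and 2898 on control arrays (0.15 ± 0.11; limma adjusted p = 0.40). ACADM overlapped between groups and ACADVL did not. MLYCD had 157, 114, 210.2 and 166 on COP1 siRNA arrays, against 96.9, 131, 110.4 and 135 on control arrays (0.28 ± 0.13; limma adjusted p = 0.14). PPARA had 33.6, 38.7, 26.4 and 32.7 on COP1 siRNA arrays, against 16.7, 17.1, 16.6 and 34.2 on control arrays (0.17 ± 0.10; limma adjusted p = 0.28). It was thus near background, above it on 4 of 4 COP1 siRNA arrays and 1 of 4 control arrays.

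Of the marker genes tested 4 passed in HepG2, where 18.6% of all genes did. They were 1 of 9 hepatocyte, 1 of 4 fibroblast and 0 of 2 endothelial markers, and of 3 leukocyte markers 1 raised and 1 lowered. The log2 changes were -0.64 ± 0.19 for APOB, the main protein of low-density lipoprotein, -0.47 ± 0.14 for the growth factor receptor PDGFRB, 0.51 ± 0.18 for CD14 and -0.47 ± 0.13 for LYZ (limma adjusted p = 0.021, 0.020, 0.049 and 0.013). The hepatocyte markers summed to 129549 to 135083 on HepG2 COP1 siRNA arrays and 139180 to 143697 on HepG2 control arrays, the fibroblast markers to 73.9 to 133 and 149.7 to 235, and the leukocyte markers to 743 to 1195 and 726 to 899. Their part in the changes of CPT1A and HADHA was not tested.

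**Figure D3:**
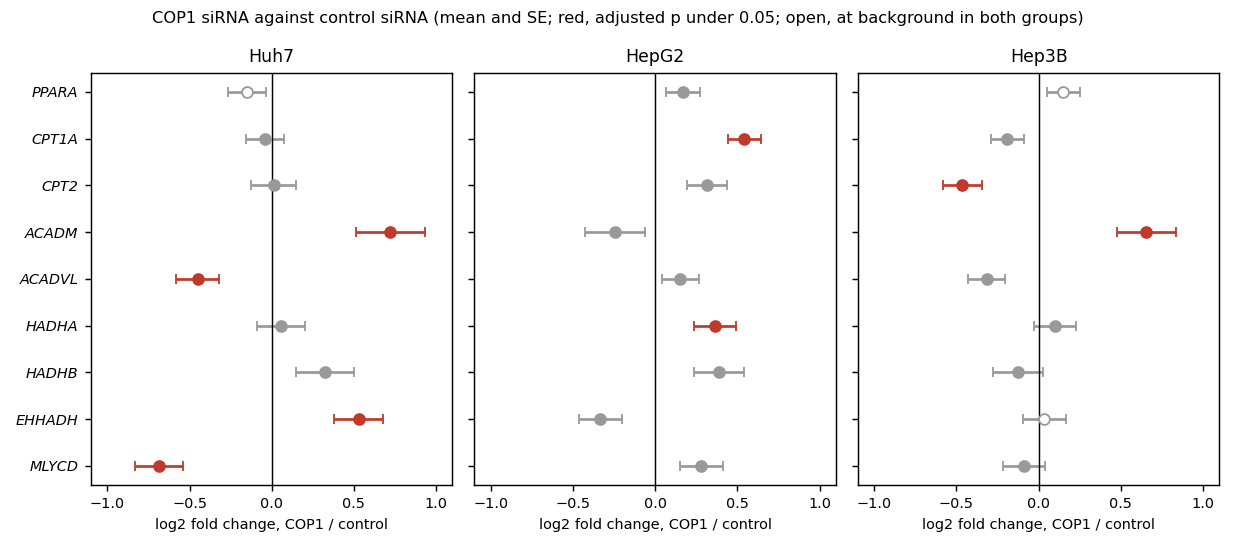
Log2 change of the 9 genes (COP1 siRNA over control; mean and SE) in Huh7, HepG2 and Hep3B cells, red where the adjusted p is under 0.05 and open where both groups lay at background. CPT1A and HADHA are red in HepG2, CPT2 and ACADM in Hep3B, and ACADM, ACADVL, EHHADH and MLYCD in Huh7, so ACADM is the gene that is red in 2 lines.

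In Hep3B cells COP1 siRNA raised ACADM and lowered CPT2, and the other 7 genes did not pass. The 2 are 22.2% of the 9, where 16.3% of all genes passed (8.44% higher, 7.88% lower), and the median log2 change was -0.09 for the 9 and -0.01 for all genes. No arrays overlapped between groups for 4 of the 9, with COP1 siRNA above control in 1 and below in 3, and likewise for 28.3% of all genes.

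ACADM had 1340.0, 1224, 1211 and 1107 on the Hep3B COP1 siRNA arrays, against 734, 679, 779 and 794 on the Hep3B control arrays. The groups lay far apart, at 163% of the control mean, with a log2 change of 0.66 ± 0.18 (n = 4 and 4; limma adjusted p = 0.012). With Hep3B fitted alone the SE was 0.09 (limma adjusted p = 2.9e-05; 1.3e-05 to 0.045 over the alternatives).

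CPT2 had 398, 479, 409 and 562 on the Hep3B COP1 siRNA arrays, against 732, 693, 618 and 608 on the control arrays. All COP1 siRNA arrays lay below all controls, at 69.7% of the control mean, with a log2 change of -0.46 ± 0.12 (n = 4 and 4; limma adjusted p = 0.0076). CPT1A had 164, 174, 154 and 142 on COP1 siRNA arrays, against 201, 175, 182 and 211 on control arrays. It also lay below its controls, by little at the nearest arrays, and did not pass (-0.19 ± 0.10; limma adjusted p = 0.23). The dim CPT1A probe had 37.8, 25.0, 50.6 and 22.02 on COP1 siRNA arrays, against 23.8, 17.4, 20.3 and 28.2 on control arrays. Its log2 change was of the opposite sign, 0.15 ± 0.14 (limma adjusted p = 0.55 over all probes), and the mean over probes gave -0.02 (limma adjusted p = 0.94; 0.097 to 0.94 over the alternatives).

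ACADVL had 4122, 3538, 3407 and 4321 on the Hep3B COP1 siRNA arrays, against 4953, 4349, 4762 and 5090.1 on the control arrays. The groups did not overlap, and the log2 change of -0.31 ± 0.11 did not pass (limma adjusted p = 0.058), though it did under 6 of 20 alternatives (0.0026 to 0.19). The other ACADVL probes had log2 changes of -0.27 and -0.47 (limma adjusted p = 0.22 and 0.088).

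The trifunctional protein subunits overlapped between groups in Hep3B. HADHA had 206, 316, 341 and 279 on COP1 siRNA arrays, against 300.1, 266, 214 and 257 on control arrays (log2 change 0.10 ± 0.13; limma adjusted p = 0.71). HADHB had 582, 539, 478 and 493 on COP1 siRNA arrays, against 549, 572, 606 and 578 on control arrays (-0.13 ± 0.15; limma adjusted p = 0.69). MLYCD had 27.1, 20.3, 34.3 and 23.6 on COP1 siRNA arrays, against 36.8, 32.7, 24.8 and 36.4 on control arrays (-0.09 ± 0.13; limma adjusted p = 0.75). It was close to background, above it on 3 of 4 COP1 siRNA arrays and 4 of 4 control arrays. EHHADH, between -2.46 and 11.0, and PPARA, between -2.83 and 21.4, were at background on all 8 Hep3B arrays. Of the marker genes PDGFRB fell in Hep3B, with a log2 change of -0.68 ± 0.14 (limma adjusted p = 0.0014). It was 1 of 4 fibroblast markers tested, where 7.88% of all genes fell. The fibroblast markers summed to 65.2 to 101 on COP1 siRNA arrays and 134 to 215 on control arrays. Their part in the changes of ACADM and CPT2 was not tested.

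Whether lines responded differently was tested as the difference of their log2 changes, 27 differences for the 9 genes. Between HepG2 and Huh7, 5 of the 9 differed, where 26.1% of all genes did (12.3% higher, 13.8% lower). MLYCD differed by 0.97 ± 0.20 (limma adjusted p = 0.00075), CPT1A by 0.59 ± 0.15 (0.0062) and ACADVL by 0.60 ± 0.17 (0.012), all more positive in HepG2. The other ACADVL probes differed by 0.41 and 0.77 (limma adjusted p = 0.17 and 0.044 over all probes). EHHADH differed by -0.86 ± 0.20 (limma adjusted p = 0.0022) and ACADM by -0.97 ± 0.28 (0.011), both more positive in Huh7. Without the Huh7 array that stood apart all 5 still passed, at 0.99 for MLYCD, 0.65 for CPT1A, 0.57 for ACADVL, -0.63 for EHHADH and -0.66 for ACADM. Without Huh7 control replicate 3 ACADM (-0.79) and ACADVL (0.47) did not pass (limma adjusted p = 0.050 and 0.053; 0.0019 to 0.050 and 0.0028 to 0.071 over the alternatives). With the mean over probes CPT1A did not pass, at 0.13 (limma adjusted p = 0.59; 0.0024 to 0.59 over the alternatives).

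Between Hep3B and HepG2, 4 of the 9 differed, where 19.8% of all genes did (10.7% higher, 9.10% lower). Both carnitine transferases had more negative changes in Hep3B, CPT2 by -0.78 ± 0.17 (limma adjusted p = 0.0019) and CPT1A by -0.73 ± 0.14 (0.00070). With the mean over probes CPT1A differed by -0.29 and did not pass (limma adjusted p = 0.17; 1.8e-05 to 0.17 over the alternatives). ACADM was more positive in Hep3B, by 0.90 ± 0.26 (limma adjusted p = 0.013). ACADVL differed by -0.47 ± 0.16 (limma adjusted p = 0.039), a call lost under 17 of 28 alternatives (0.0060 to 0.11). Its other probes differed by -0.19 and -0.53 and did not pass (limma adjusted p = 0.57 and 0.16 over all probes). Between Hep3B and Huh7, 1 of the 9 differed, where 14.7% of all genes did (7.12% higher, 7.58% lower): MLYCD by 0.60 ± 0.20 (limma adjusted p = 0.040), lost under 14 of 26 alternatives (0.0095 to 0.12) and at 0.62 without the Huh7 array that stood apart.

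On the log2 scale with its offset, EHHADH and HADHB differed most between lines in control cells among the 9 genes. As a ratio of intensities the dimmer MLYCD, at 179 in Huh7 against 32.7 in Hep3B control cells, lay further apart than HADHB. EHHADH averaged 333 ± 37.2 in HepG2 control cells (SD, n = 4), against 52.6 ± 2.58 in Huh7 control cells (SD, n = 3), a log2 difference of 1.67 ± 0.14 (limma adjusted p = 8.2e-11). In Hep3B control cells it was at background, at least 4.19-fold lower than in HepG2 and at least 1.32-fold lower than in Huh7 control cells (limma adjusted p = 6.3e-15 and 7.8e-05). These bounds set the mean of the brighter group against the lowest signal above background on the Hep3B arrays, on the normalized scale.

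HADHB averaged 916 ± 166 in HepG2 control cells (SD, n = 4), against 242 ± 51.6 in Huh7 control cells (SD, n = 3), a log2 difference of 1.64 ± 0.17 (limma adjusted p = 3.0e-09). At 576 ± 23.1 in Hep3B control cells (SD, n = 4) it was also higher than in Huh7, by 1.05 ± 0.17 (limma adjusted p = 3.7e-06). HADHA, which shares with it the promoter stretch shown above, had another order. HADHA averaged 454 ± 22.2 in HepG2 control cells (SD, n = 4), against 440 ± 103 in Huh7 control cells (SD, n = 3), a log2 difference of 0.05 ± 0.14 (limma adjusted p = 0.77). At 259 ± 35.3 in Hep3B control cells (SD, n = 4) it was lower than in Huh7, with a difference of -0.61 ± 0.14 (limma adjusted p = 0.00038). Each gene had 1 probe, and the difference between the genes was not itself tested.

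CPT1A averaged 192 ± 16.6 in Hep3B control cells (SD, n = 4), against 490.1 ± 44.4 in HepG2 (SD, n = 4) and 440 ± 16.9 in Huh7 control cells (SD, n = 3). The log2 differences were -1.08 ± 0.10 and -0.95 ± 0.11 (limma adjusted p = 4.8e-10 and 2.1e-08), while the dim CPT1A probe gave -0.24 and 0.05 (limma adjusted p = 0.15 and 0.79). MLYCD averaged 32.7 ± 5.59 in Hep3B control cells (SD, n = 4), near background, against 119 ± 18.1 in HepG2 (SD, n = 4) and 179 ± 22.1 in Huh7 control cells (SD, n = 3). Its log2 differences were -0.84 ± 0.13 and -1.23 ± 0.14 (limma adjusted p = 2.6e-06 and 1.5e-08).

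ACADVL was higher in Hep3B than in both other lines, at 4788 ± 322 in Hep3B control cells (SD, n = 4), against 3108 ± 141 in HepG2 (SD, n = 4) and 3855 ± 665 in Huh7 control cells (SD, n = 3). The log2 differences were 0.61 ± 0.11 and 0.32 ± 0.12 (limma adjusted p = 4.1e-05 and 0.025), and that against Huh7 was lost under 8 of 18 alternatives (0.0041 to 0.26). The other ACADVL probes differed from HepG2 by 0.35 and 0.30 (limma adjusted p = 0.035 and 0.16) and from Huh7 by 0.01 and 0.18 (limma adjusted p = 0.97 and 0.43).

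Counted over the set, 9 of 9 differed between Hep3B and HepG2 control cells, 8 of them lower in Hep3B, where 59.0% of all genes differed (30.5% higher, 28.5% lower). The 5 not yet given were ACADM at -0.77 ± 0.18, HADHA at -0.67 ± 0.13, HADHB at -0.59 ± 0.15, CPT2 at -0.34 ± 0.12 and PPARA at -0.31 ± 0.10 (limma adjusted p = 0.00061, 6.4e-05, 0.0017, 0.015 and 0.0096). PPARA was at background on all 4 Hep3B and 3 of 4 HepG2 control arrays, so its difference has no fold. Between Hep3B and Huh7, 7 of 9 differed, 5 of them lower, where 65.0% of all genes did (34.0% higher, 31.0% lower), with CPT2 at -0.39 ± 0.13 (limma adjusted p = 0.010). Without Huh7 control replicate 2 CPT2 did not pass (limma adjusted p = 0.066; 0.0022 to 0.066 over the alternatives). Between HepG2 and Huh7, 4 of 9 differed, where 54.7% of all genes did (28.2% higher, 26.5% lower), with MLYCD at -0.39 ± 0.14 and ACADVL at -0.29 ± 0.12 besides HADHB and EHHADH (limma adjusted p = 0.019 and 0.046). The ACADVL call was lost under 13 of 18 alternatives (0.015 to 0.31). Arrays did not overlap for 9 of the 9 between Hep3B and HepG2, where 59.9% of all genes did not, for 6 between Hep3B and Huh7 (67.4%) and for 5 between HepG2 and Huh7 (57.5%). Of the 9 hepatocyte markers, 9 were lower in Hep3B than in Huh7 and 8 lower than in HepG2 control cells, with median log2 differences of -4.84 and -7.17, and their part in the levels of the 9 genes was not tested.

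Over all 6 groups, HepG2 cells given COP1 siRNA had the highest mean of PPARA, CPT1A, CPT2, HADHA and HADHB. For CPT1A the mean log2 level was 9.68 in HepG2 COP1 siRNA cells, 9.14 in HepG2 control, 9.01 in Huh7 control, 8.96 in Huh7 COP1 siRNA, 8.06 in Hep3B control and 7.87 in Hep3B COP1 siRNA cells. The steps between the first pair and between Huh7 COP1 siRNA and Hep3B control passed (limma adjusted p = 0.00029 and 4.6e-08), and the other neighbours did not differ beyond their spread. For HADHB the levels were 10.33 in HepG2 COP1 siRNA, 9.94 in HepG2 control, 9.35 in Hep3B control, 9.22 in Hep3B COP1 siRNA, 8.62 in Huh7 COP1 siRNA and 8.29 in Huh7 control cells. Here the steps that passed were those from 1 line to the next (limma adjusted p = 0.0017 and 0.0025).

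EHHADH stood at 8.67 in HepG2 control, 8.33 in HepG2 COP1 siRNA and 7.53 in Huh7 COP1 siRNA cells, followed by Huh7 control. It was 6.32 in Hep3B COP1 siRNA and 6.29 in Hep3B control cells. Both steps between lines and that within Huh7 passed (limma adjusted p = 1.6e-05, 0.00014 and 0.0079). Without the array that stood apart the step within Huh7 did not pass (limma adjusted p = 0.085). MLYCD was led by Huh7 control cells at 7.98, and the step that passed lay between Huh7 COP1 siRNA at 7.30 and Hep3B control cells at 6.75 (limma adjusted p = 0.0012). For CPT2 the neighbours that differed were HepG2 control (9.87) and Hep3B control (9.52), and Hep3B control and Hep3B COP1 siRNA (9.06; limma adjusted p = 0.015 and 0.0076). For HADHA they were HepG2 COP1 siRNA (9.41) and Huh7 COP1 siRNA (9.05), and Huh7 control (8.99) and Hep3B COP1 siRNA (8.48; limma adjusted p = 0.025 and 0.0021). No neighbours differed for ACADM, ACADVL or PPARA (limma adjusted p = 0.15 to 0.61, 0.058 to 0.98 and 0.17 to 0.94). ACADM was highest at 10.73 in Huh7 COP1 siRNA cells, with 10.35, 10.48 and, on the array that stood apart, 11.35. ACADVL was highest at 12.25 in Hep3B control cells, and the means of PPARA spanned 0.49. All levels of Huh7 COP1 siRNA cells in these orders include the array that stood apart.

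**Figure D4:**
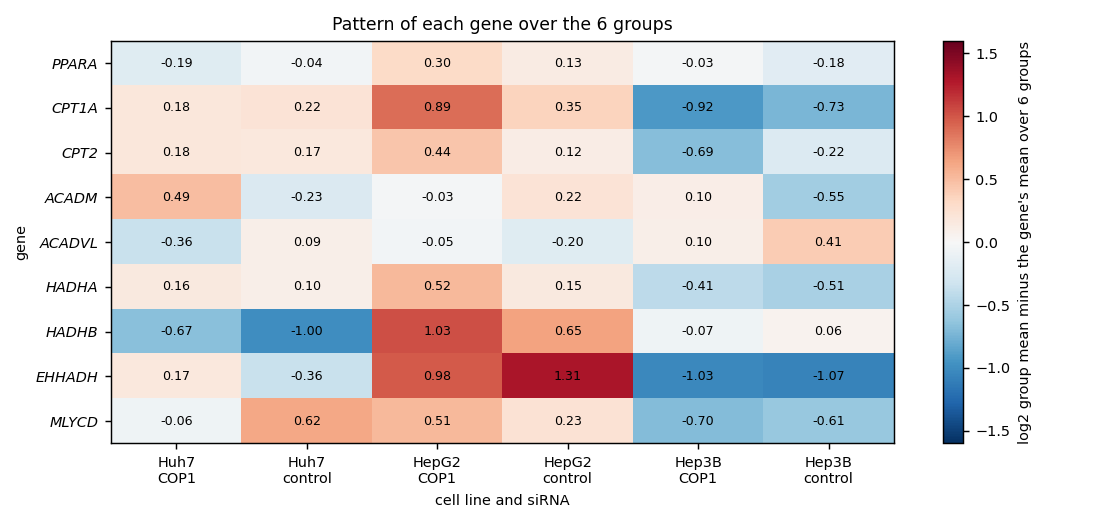
Mean log2 level of each of the 9 genes in the 6 groups minus the gene's own mean over the groups, as colour and number, with COP1 siRNA left of control in each line. CPT1A, CPT2 and HADHA are highest in HepG2 COP1 siRNA cells (0.89, 0.44 and 0.52) and below 0 in both Hep3B groups, HADHB is lowest in Huh7 control cells and ACADVL highest in Hep3B control cells (0.41).

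Patterns over the 6 groups were compared by the root mean square difference of centred log2 means, with the other 12256 named genes ranked for each of the 9. HADHA was nearest to EPB41L1 (0.04) and FCER1G (0.06), with CPT2 at rank 123 (0.17) and its partner HADHB at rank 8394 (0.69). CPT2 was nearest to BSG (0.09) and LSM3 (0.09), with HADHA at rank 56. CPT1A was nearest to IRF2BPL (0.09) and CLN3 (0.10), with MLYCD at rank 148 (0.27) and HADHA at rank 194 (0.29). MLYCD was nearest to RHOF (0.05) and NUDT18 (0.08), and HADHB to RPL26L1 (0.08) and ARHGAP27 (0.10). EHHADH, with the widest range of group means (2.38), was nearest to AKAP7 (0.14) and MEP1A (0.17). ACADM was nearest to CNOT1 (0.09) and SSR1 (0.10), ACADVL to NME6 (0.04) and SLC50A1 (0.04), and PPARA to COXFA4 (0.03) and MLST8 (0.05). PPARA was at background on all Huh7 and Hep3B arrays, with a range of group means of 0.49, which limits what its small differences can show. The Huh7 COP1 siRNA means include the array that stood apart. The likeness is a description over 6 points that share arrays, with no test.

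Of 71 other genes of the pathway, in 5 lists, 63 were on the array and 55 were tested. Those higher with COP1 siRNA numbered 11 in Huh7, 13 in HepG2 and 4 in Hep3B, and those lower 13, 7 and 4. Together they are 43.6%, 36.4% and 14.5% of the 55, where 32.2%, 18.6% and 16.3% of all genes passed. Without the Huh7 array that stood apart 8 rose and 17 fell in Huh7 (45.5%, against 28.9%), and 18 of the 24 were called both ways.

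Among peroxisomal oxidation genes 10 were tested. COP1 siRNA raised 3 of them in Huh7, 5 in HepG2 and 0 in Hep3B, and lowered 2, 1 and 2 (median log2 changes 0.09, 0.33 and -0.01). The Huh7 counts were again 3 and 2 without the array that stood apart, with PHYH then lowered and DECR2 not (median 0.11). CROT, which joins shortened chains to carnitine, rose by 1.32 ± 0.16 in Huh7 and 0.77 ± 0.14 in HepG2, and the acyl-CoA oxidase ACOX3 by 0.96 ± 0.12 and 0.55 ± 0.10 (limma adjusted p = 5.5e-07, 0.00019, 7.3e-07 and 0.00029). In Huh7 ACOX2, the oxidase of branched chains, fell by 1.33 ± 0.15 and AMACR, a racemase of branched chains, rose by 0.79 ± 0.15 (limma adjusted p = 3.1e-07 and 0.00020). Without the array that stood apart the Huh7 log2 changes were 1.12 for CROT, 0.86 for ACOX3, -1.103 for ACOX2 and 0.69 for AMACR, and all 4 passed. In HepG2 PEX11A, of peroxisome division, rose by 0.53 ± 0.12 and the lyase HACL1 by 0.40 ± 0.10 (limma adjusted p = 0.0019 and 0.0066). In Hep3B the hydroxylase PHYH fell by 0.57 ± 0.11 and the reductase DECR2 by 0.47 ± 0.15 (limma adjusted p = 0.00040 and 0.034). PHYH also fell in HepG2, with a log2 change of -0.35 ± 0.11, and DECR2 in Huh7, with -0.60 ± 0.18 (limma adjusted p = 0.021 and 0.011).

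Among other mitochondrial oxidation genes 20 were tested. COP1 siRNA raised 5 of these in Huh7, 6 in HepG2 and 1 in Hep3B, and lowered 5, 2 and 1 (medians 0.0039, 0.10 and -0.05). Without the array that stood apart 3 were raised and 6 lowered in Huh7 (median -0.0060). ACSL5, which activates long chains before CPT1A takes them up, rose by 1.05 ± 0.11 in Huh7 and 0.55 ± 0.09 in HepG2 (limma adjusted p = 5.1e-08 and 0.00011). ACADS, the short-chain counterpart of ACADM, fell by 0.67 ± 0.12 in Huh7 and rose by 0.44 ± 0.10 in HepG2 (limma adjusted p = 9.2e-05 and 0.0026). Of the enoyl-CoA isomerases ECI1 fell by 1.33 ± 0.26 and ECI2 rose by 0.60 ± 0.12 in Huh7 (limma adjusted p = 0.00034 and 0.00032). In Huh7 without the array that stood apart ECI1 had a log2 change of -0.80, ECI2 of 0.56, ACSL5 of 0.99 and ACADS of -0.63, and all 4 passed. In HepG2 the dehydrogenase ACAD11 rose by 0.81 ± 0.12 and ACADSB fell by 0.58 ± 0.12 (limma adjusted p = 9.9e-06 and 0.0014). In Hep3B SLC25A20, the carrier of acylcarnitines to CPT2, fell by 0.60 ± 0.15 and ACSL4 rose by 1.00 ± 0.20 (limma adjusted p = 0.0063 and 0.00084). SLC25A20 also fell in Huh7, with a log2 change of -0.77 ± 0.17 (limma adjusted p = 0.0013), where CPT2 did not pass. Its change was -0.82 there without the array that stood apart, and -0.42 in HepG2, which did not pass (limma adjusted p = 0.00070 and 0.054). In HepG2 ACSL4 fell, with a log2 change of -0.77 ± 0.20 (limma adjusted p = 0.0068).

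Among PPARA partners and genes of malonyl-CoA 14 were tested. Of these 2 were raised in Huh7, 1 in HepG2 and 2 in Hep3B, and 3, 2 and 1 were lowered (medians -0.08, -0.10 and 0.14). In Huh7, 2 were raised and 5 lowered without the array that stood apart (median -0.17). There the coactivator PPARGC1A (-0.72), ACACA (-0.47), which makes malonyl-CoA, and MED1 (0.43) also passed (limma adjusted p = 0.00059, 0.0034 and 0.035). SIRT1, raised by 0.62 in Huh7 with all arrays, was then at 0.20 and did not pass (limma adjusted p = 0.026 and 0.30). RXRB, a retinoid X receptor, fell in each line, with log2 changes of -0.98 ± 0.15 in Hep3B, -0.85 ± 0.17 in Huh7 and -0.52 ± 0.15 in HepG2 (limma adjusted p = 3.0e-05, 0.00037 and 0.013). In Huh7 RXRA, of the same family, fell by 0.87 ± 0.17, ACACB, which makes malonyl-CoA, fell by 0.55 ± 0.15 and LPIN1, a phosphatase and coactivator, rose by 0.87 ± 0.14 (limma adjusted p = 0.00028, 0.0049 and 3.9e-05). With that array left out RXRA had a log2 change of -0.61, RXRB of -0.74, ACACB of -0.51 and LPIN1 of 0.74 in Huh7, and all 4 passed. In HepG2 the coactivator PPARGC1A fell by 0.59 ± 0.17 and the receptor PPARD rose by 0.50 ± 0.14 (limma adjusted p = 0.014 and 0.012). In Hep3B the Mediator subunit MED1 rose by 0.83 ± 0.13 and the AMP-activated kinase subunit PRKAA1 by 0.59 ± 0.16 (limma adjusted p = 4.6e-05 and 0.010).

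Among other targets of PPARA 7 were tested. Of these 0 were raised in Huh7, 1 in HepG2 and 1 in Hep3B, and 2, 1 and 0 were lowered (medians -0.20, -0.05 and -0.03). With the same array left out 3 were lowered in Huh7 (median -0.31), among them CREB3L3 at -0.76 and FGF21 at -0.36. CREB3L3, a transcription factor of the fasting liver, fell by 0.82 ± 0.14 in Huh7 and rose by 0.40 ± 0.12 in HepG2 (limma adjusted p = 7.7e-05 and 0.022). The hormone FGF21 fell by 0.38 ± 0.12 in Huh7, the lipid droplet protein PLIN2 fell by 0.33 ± 0.12 in HepG2 and the pantetheinase VNN1 rose by 0.38 ± 0.13 in Hep3B (limma adjusted p = 0.018, 0.045 and 0.047). Of the ketone body genes ACAT1, BDH1, OXCT1 and AACS were tested, with 1 raised and 1 lowered in Huh7, 1 lowered in HepG2 and 0 past the test in Hep3B (medians 0.15, -0.13 and 0.07). OXCT1, which uses ketone bodies, rose by 0.43 ± 0.15 in Huh7, where it was 0.35 and did not pass without the array that stood apart (limma adjusted p = 0.032 and 0.095). AACS, which activates acetoacetate, fell by 0.48 ± 0.12 in Huh7 and 0.37 ± 0.10 in HepG2 (limma adjusted p = 0.0024 and 0.0099), and in Huh7 its log2 change was -0.47 without the array that stood apart, where it passed. Of the 4 ketone body genes 0 were then raised and 1 lowered (median 0.15).

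**Figure D5:**
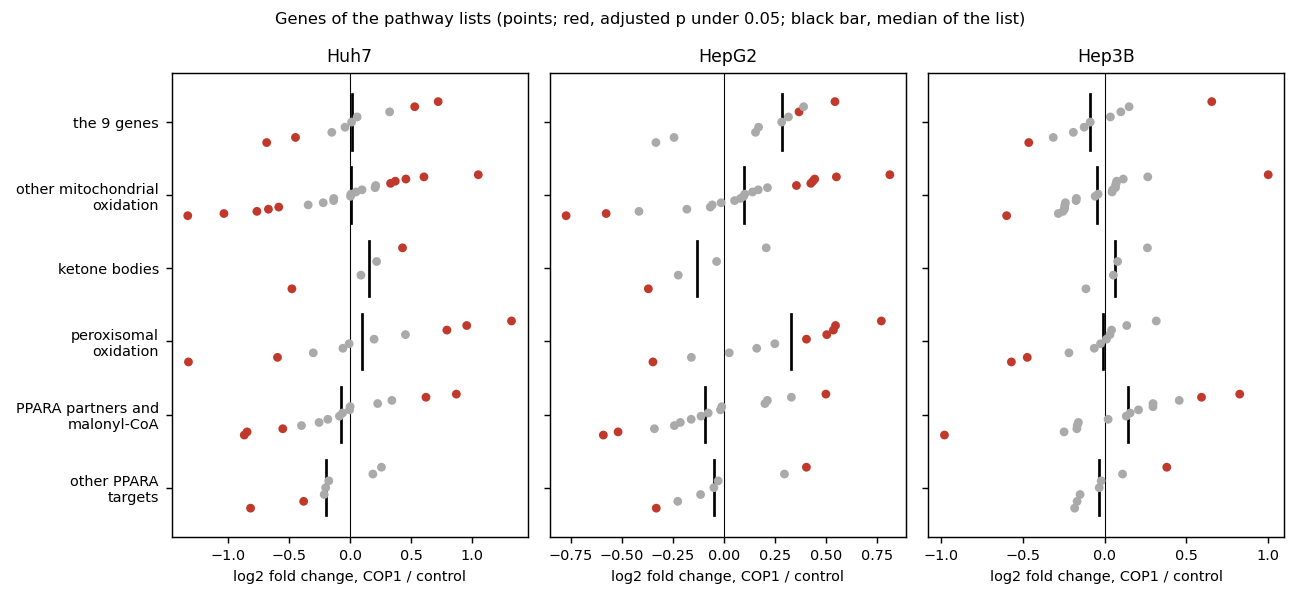
Log2 change (COP1 siRNA over control) of each gene tested among the 9 genes and in the 5 lists, by line, red where the adjusted p is under 0.05, with a black bar at each list's median. Red points lie on both sides of 0 in most lists in Huh7, and the medians of the peroxisomal list and of the 9 genes in HepG2 are 0.33 and 0.28.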

How the data were processed

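Total RNA of the 22 samples was labelled and hybridised to Illumina HumanRef-8 v3 arrays, per the labels' protocols, and GenomeStudio 2009.1 is named in the submitters' processing notes. The deposited intensity values are linear, with 23.7% below 0 and array medians of 24.3 to 24.5, so they hold a subtracted background and were already set to a common scale by the authors. Another table with 44 columns of values that no label ties to a sample was not used. Of 24526 probes 21834 had 1 gene symbol in the platform annotation, 0 had several and 2692 had none, and 21813 were matched to current RefSeq symbols by gene ID.

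From these values limma 3.58.1 (R 4.3.3) made normexp-corrected (offset 50), log2, quantile-normalized levels. Background was 21.8, the 0.98 quantile of the sizes of values below 0, and probes above it on at least 3 arrays were kept (16563). Each gene was taken from its brightest probe, which gave 13870 genes and unnamed probes. All 6 groups entered 1 fit of group means (lmFit, eBayes; 16 residual degrees of freedom), with Benjamini-Hochberg adjustment within each comparison and a threshold of 0.05. The steps were tested on simulated data. No depth exists for arrays, and their number limits the precision.

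Members, lists and tests were chosen with earlier results of these data known. The text names all members, for each member the 2 genes of nearest pattern, and in each list and line the changed genes of lowest adjusted p, at most 4. Some genes are also given in a line where they were not among these 4, or where their call moved without the Huh7 array that stood apart. The design had assumed log2(normexp intensity + 50), and the offset is added within the normexp step. Equal replicate numbers were not treated as pairs in the main fit. Deviations of samples with equal numbers had correlations of -0.28 to 0.10. Whether such samples were prepared together was not tested. The alternatives were no normexp, an offset of 16, cyclic loess, no second normalization, no or a stricter filter, the mean over probes, lines fitted alone, array weights, an intensity trend, a threshold of 0.01, a replicate block and each array left out. Leaving out Huh7 COP1 siRNA replicate 3 with Huh7 fitted alone, and for the lists, was chosen after seeing the data.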

Additional observations from a re-analysis of the deposited data

Results flagged for a closer look

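Single arrays far from the rest of their group were sought in 36 sets of 4 arrays, of which chance picks about 1 in 20, and 2 were found, both on replicate 4 of the HepG2 control group. PPARA was highest there at an intensity of 34.2, against 16.6 to 17.1 on the other 3 arrays, and ACADVL was lowest there at 2898, against 3165 to 3197.

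The change under COP1 siRNA differed between lines, by the test of the difference itself, in 10 of 27 cases. Over all genes 26.1% differed for HepG2 minus Huh7, 14.7% for Hep3B minus Huh7 and 19.8% for Hep3B minus HepG2. As log2 differences, HepG2 minus Huh7 gave 0.59 for CPT1A, -0.97 for ACADM, 0.60 for ACADVL, -0.86 for EHHADH and 0.97 for MLYCD. Hep3B minus Huh7 gave 0.60 for MLYCD. Hep3B minus HepG2 gave -0.73 for CPT1A, -0.78 for CPT2, 0.90 for ACADM and -0.47 for ACADVL. The MLYCD call of Hep3B minus Huh7 was lost under 14 of 26 alternatives. The ACADVL call of Hep3B minus HepG2 was lost under 17 of 28. The CPT1A calls were lost with the mean over probes. Comparisons that share a line share its arrays, and the Huh7 values include the array that stood apart.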

How the results depend on the processing

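Over 81 results of the 9 genes, 1746 values under alternatives were computed: 1624 kept the side of the threshold and, where either passed, the direction, 95 lost the call, 27 gained one and 0 reversed. Among values that passed in neither setting 34 changed sign. The number of the 9 genes changed in Huh7 (4) was 0 with Huh7 fitted alone, 1 with array weights, 1 with Huh7 fitted alone without COP1 siRNA replicate 3, and 2 to 4 with 1 array left out, the 2 arising without COP1 siRNA replicate 3 or control replicate 3. In HepG2 (2) it was 1 without normexp, with the smaller offset, without a filter, with the mean over probes and at a threshold of 0.01, 5 with HepG2 fitted alone, 6 with array weights, and 1 to 3 with 1 array left out. In Hep3B (2) it was 1 at 0.01 and 2 to 3 with 1 array left out. In control cells HepG2 against Huh7 (4) gave 2 with the lines fitted alone and at 0.01, and 2 to 5 with 1 array left out, Hep3B against Huh7 (7) gave 5 to 8 and Hep3B against HepG2 (9) gave 9 to 9. For different responses, HepG2 against Huh7 (5) gave 3 at 0.01 and 3 to 5 with 1 array left out. Hep3B against Huh7 (1) gave 0 with the smaller offset, with the lines fitted alone and at 0.01, and 0 to 3 with 1 array left out. Hep3B against HepG2 (4) gave 2 with the mean over probes and at 0.01, and 3 to 4 with 1 array left out. Over all genes, the 4469 calls of Huh7 were 1302 fitted alone, 2392 with array weights, 2952 fitted alone without COP1 siRNA replicate 3 and 2860 at 0.01, the 2577 of HepG2 were 1539 at 0.01, and the 2264 of Hep3B were 3922 fitted alone, 4431 with array weights and 1283 at 0.01. A stricter threshold passes fewer genes by construction, and the cause of the other shifts was not tested. Signal over background limits PPARA in all lines, and EHHADH and MLYCD in Hep3B.

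With the replicate number as a block, the counts of the 9 genes changed were 4 in Huh7, 1 in HepG2 and 2 in Hep3B, and that of different responses between Hep3B and Huh7 was 0. Over all genes the block gave 3756, 2054 and 1697 calls in Huh7, HepG2 and Hep3B. Of 11 numbers, 1 correlated best with its own number. With so few arrays per group this cannot tell whether samples of equal number were prepared together. Comparisons of control cells could not be fitted with the block.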
